A study of Mus musculus with 6 samples.

Results

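The IFIT genes encode interferon-induced proteins with tetratricopeptide repeats, and 4 of them, Ifit1, Ifit2, Ifit3 and Ifit3b, are described here out of 54886 genes listed in each library. They were selected on their values in this same comparison, in which several of them were lower after PM2.5 exposure. Their levels and fold changes are therefore a description and carry no test. In cells that respond to interferon, the receptor-associated kinases JAK1 and TYK2 phosphorylate transcription factors such as STAT2, which joins IRF9 and acts on the interferon-stimulated response element (ISRE) in the promoters of the IFIT genes. IFIT1 binds viral RNA whose cap lacks ribose methylation and keeps it from the ribosome. IFIT2 binds AU-rich RNA and contacts the translation factor eIF3, and IFIT3 serves as an adaptor in antiviral signalling. The IFIT genes are also known to be induced directly through IRF3 once a cell senses foreign nucleic acid.

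RNA was sequenced from GC-2spd cells, an immortalised mouse line that the labels describe as spermatocyte-derived, on a BALB/c background. The control group (PM_0) was kept in normal medium, and the exposed group (PM_100) was exposed to PM2.5 at 100 μg/mL over 48 h, with 3 libraries in each group. The methods name PBS as the vehicle and a standard urban particulate as the PM2.5. All libraries came from 1 cell line, and the labels do not say whether the replicates were separate cultures. The methods speak in general of 3 experiments, without naming the RNA libraries, so the spread between libraries may be technical.

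The authors deposited FPKM, the fragments of a gene divided by its length and scaled to the depth of the library, and between 16209340 and 18003193 reads per library could be recovered from these values. PM_0_2 stood apart from the other 5 libraries. Its correlation with them on the log2 scale lay between 0.73 and 0.78, and mitochondrial transcripts took 14.5% of its reads against 1.65% to 1.95% elsewhere. Its median absolute log2 difference from the mean of PM_0_1 and PM_0_3 was 0.81, compared with 0.07 between those libraries. The fits were therefore made with and without PM_0_2. Of 11 spermatocyte markers, 4 were at 0 in all libraries and none reached the level needed for the fit, with summed levels of 0.466 to 2.59 FPKM in PM_0 and 0.0416 to 0.612 FPKM in PM_100. Of 6 Sertoli markers only Gata4 entered the fit, with 14.2 to 18.2 FPKM in PM_0 and 11.1 to 22.3 FPKM in PM_100. Of 5 Leydig markers only Star did, with 1.58 to 2.49 FPKM in PM_0 and 1.62 to 1.86 FPKM in PM_100. Neither Gata4 nor Star was called in either fit. The immune cell markers Ptprc, Adgre1, Cd3e and Itgam were at 0 in every library. Cd68 reached 15.5 FPKM in PM_0_2 and at most 1.80 FPKM in any other library. Of 6 fibroblast markers, 4 entered the fit, and 2 of these lay lower in all exposed libraries than in all controls. This was the case for 6.85% of all genes tested. Col1a2 was at 199 to 202 FPKM in PM_0 and 115 to 135 FPKM in PM_100, and Col3a1 at 13.6 to 17.8 and 7.52 to 9.61 FPKM. Neither Col1a2 nor Col3a1 was called by limma (adjusted p = 0.875 for both, and 0.0783 and 0.140 without PM_0_2). The groups of Col1a1 overlapped, with 412, 452 and 425 FPKM in PM_0 and 435, 437 and 193 FPKM in PM_100. Those of Pdgfrb overlapped as well, with 3.37, 3.35 and 3.77 FPKM in PM_0 and 4.06, 4.17 and 2.77 FPKM in PM_100. The summed level of the 6 was 631 to 672 FPKM in PM_0 and 319 to 583 FPKM in PM_100, Thy1 and Dcn were at or near 0, and the part of these genes in the IFIT values was not tested.

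The 4 genes lie on chromosome 19 of the mouse build GRCm38, all on the plus strand, within 99316 bp (GENCODE M21). Ifit2 spans chr19:34550694-34576419, Ifit3 chr19:34583531-34588731, Ifit3b chr19:34607970-34613401 and Ifit1 chr19:34640871-34650009. The Ifit1 paralogs Ifit1bl1 and Ifit1bl2 lie between them on the minus strand. No other annotated gene overlaps any of the 4. The promoters below, taken from RefSeq (GRCm38.p6) and limited to bases outside all annotated exons, are shown because interferon acts on the IFIT genes through such sequences. Capitals mark each match to the ISRE core GAAANNGAAA on either strand.
Ifit1, plus strand, chr19:34640744-34640870: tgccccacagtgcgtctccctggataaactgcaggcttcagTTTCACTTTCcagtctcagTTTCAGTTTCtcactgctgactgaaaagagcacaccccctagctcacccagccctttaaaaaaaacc
Ifit3, plus strand, chr19:34583279-34583528: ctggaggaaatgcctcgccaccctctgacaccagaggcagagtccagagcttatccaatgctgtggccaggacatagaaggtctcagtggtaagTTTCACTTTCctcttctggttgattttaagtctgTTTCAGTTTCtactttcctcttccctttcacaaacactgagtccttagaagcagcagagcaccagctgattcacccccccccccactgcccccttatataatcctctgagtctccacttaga
Ifit3b, plus strand, chr19:34607707-34607956: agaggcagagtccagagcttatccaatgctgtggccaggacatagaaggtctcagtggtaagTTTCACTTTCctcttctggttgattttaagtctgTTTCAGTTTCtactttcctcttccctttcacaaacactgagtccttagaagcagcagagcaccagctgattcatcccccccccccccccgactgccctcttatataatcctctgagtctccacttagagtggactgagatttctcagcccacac
Ifit2, plus strand, chr19:34550444-34550693: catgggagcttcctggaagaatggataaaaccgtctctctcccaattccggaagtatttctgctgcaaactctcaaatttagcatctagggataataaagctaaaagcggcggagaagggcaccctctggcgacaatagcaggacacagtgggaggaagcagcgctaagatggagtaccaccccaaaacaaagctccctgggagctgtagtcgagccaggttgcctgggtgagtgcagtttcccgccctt

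The Ifit1, Ifit3 and Ifit3b promoters each held 2 matches to the core. In Ifit1 they began 104 and 85 bases before the RefSeq start, in Ifit3 156 and 122 bases, and in Ifit3b 188 and 154 bases. In all 3 genes the match farther from the start read TTTCACTTTC on the printed strand and the nearer match read TTTCAGTTTC. Neither of the 2 Ifit2 windows in RefSeq held a match, which says only that these letters are not in those windows. Over all 32851 promoter windows of the same length, 3.44% held the core on either strand. The windows of Ifit3 and Ifit3b aligned over 274 columns with 94.2% identity, with 2 mismatches and 14 gap bases. The Ifit1 window shared 245 bases with the window of Ifit1bl2, which is transcribed in the opposite direction, so both genes have the same 2 matches between them. Ifit1bl1 had 1 match in each of its 2 windows, with different letters (TTTCATTTTC).

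Ifit1 was the most abundant of the 4 genes in the controls. Its level was 71.3, 244 and 60.1 FPKM in PM_0_1, PM_0_2 and PM_0_3, and 6.89, 8.74 and 11.4 FPKM in PM_100_1, PM_100_2 and PM_100_3. These values came from 3513, 8399 and 2877 reads in PM_0 and from 327, 412 and 549 reads in PM_100. All exposed libraries lay below all controls, and the lowest control was 5.25 times the highest exposed library. In bulk RNA, fewer cells with Ifit1 transcripts and fewer transcripts per cell cannot be told apart. The mean level was 125 ± 103 FPKM (SD, n = 3) in PM_0 and 9.02 ± 2.29 FPKM (SD, n = 3) in PM_100, a fold of 13.9. PM_0_2 alone was 3.71 times the mean of the other controls, and without it the control mean was 65.7 ± 7.92 FPKM (SD, n = 2) and the fold 7.28. The log2 fold change, fitted with limma on log2(FPKM + 1), was -3.38 ± 0.56 (SE) with 6 libraries and -2.75 ± 0.22 (SE) without PM_0_2. On this scale it was the most negative of all genes in both fits, of 11884 and 11597 genes tested. Adding 1 FPKM understates the change of genes at low levels, and by the ratio of mean FPKM Ifit1 was not first. Without PM_0_2 that fold was 13.3 for Ifi44 and 10.2 for Ifit3b, against 7.28 for Ifit1. With 6 libraries it was 14.3 for Isg15, against 13.9 for Ifit1.

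Ifit3 had 28.7, 45.3 and 22.9 FPKM in the control libraries and 3.11, 3.81 and 3.84 FPKM in the exposed libraries. The corresponding reads were 929, 1025 and 720 in PM_0 and 97, 118 and 121 in PM_100. The groups did not overlap, and the exposed libraries differed little among themselves (3.59 ± 0.41 FPKM, SD, n = 3). The control mean was 32.3 ± 11.6 FPKM (SD, n = 3) and 9.0 times the exposed mean, or 7.19 times without PM_0_2, the highest control. The log2 fold change was -2.81 ± 0.29 (SE) with 6 libraries and -2.54 ± 0.14 (SE) without PM_0_2.

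Ifit3b, a near copy of Ifit3 found in the mouse, was the least abundant of the 4 genes in every library. Its level was 11.99, 8.56 and 10.8 FPKM in PM_0 and 1.01, 1.38 and 0.968 FPKM in PM_100. Only 36, 49 and 35 reads stood behind the exposed values, compared with 445, 222 and 388 in the controls. The groups did not overlap, and the lowest control was 6.20 times the highest exposed library. Here PM_0_2 was the lowest control, and the fold was 9.33 with it and 10.2 without it. The log2 fold change was -2.43 ± 0.20 (SE) with 6 libraries and -2.55 ± 0.13 (SE) without PM_0_2. At these low levels the added pseudocount understated the change, and with a pseudocount of 0.1 the value was -3.11.

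Ifit2 differed from the other 3 genes in that its groups overlapped. Its level was 18.5, 13.0 and 17.95 FPKM in PM_0 and 12.9, 13.6 and 17.9 FPKM in PM_100. The reads were 1349, 662 and 1271 in PM_0 and 902, 949 and 1272 in PM_100. PM_100_3 was within 0.1 FPKM of PM_0_3 and PM_0_2 was close to PM_100_1. The means were 16.5 ± 3.03 FPKM (SD, n = 3) and 14.8 ± 2.73 FPKM (SD, n = 3), a fold of 1.11. The log2 fold change was -0.14 ± 0.24 (SE) with 6 libraries, at place 4083 of 11884 from the most negative. Without PM_0_2 the controls were 18.2 ± 0.40 FPKM (SD, n = 2), the fold was 1.23 and the log2 fold change was -0.30 ± 0.16 (SE), at place 1426 of 11597.

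**Figure D1:**
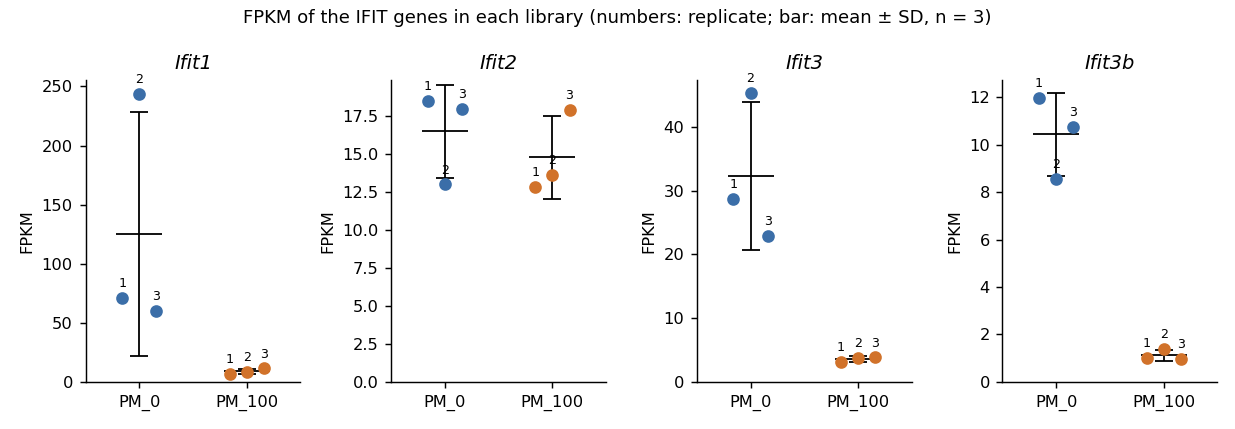
FPKM (vertical axes, each starting at 0) of the 4 IFIT genes in every library, with the replicate number above each point and a bar for the mean ± SD of the 3 libraries of PM_0 (blue) and PM_100 (orange). Ifit1, Ifit3 and Ifit3b were lower in all exposed libraries than in all controls, PM_0_2 reached 244 FPKM for Ifit1, and the Ifit2 groups overlapped.

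A gene was called when its Benjamini-Hochberg adjusted p-value in limma was under 0.05 and its absolute log2 fold change above 1. With 6 libraries, 1 of the 4 IFIT genes (Ifit3b) was called lower, where 0.0589% of the genes tested were called lower and 0.0337% higher. Without PM_0_2, 3 of the 4 were called lower (Ifit1, Ifit3 and Ifit3b), where 0.552% of the genes tested were called lower and 0.172% higher. In 3 of the 4 genes all exposed libraries lay below all controls, which was the case for 6.85% of the genes tested. As the genes were chosen from this contrast, nothing is read from these counts.

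**Figure D2:**
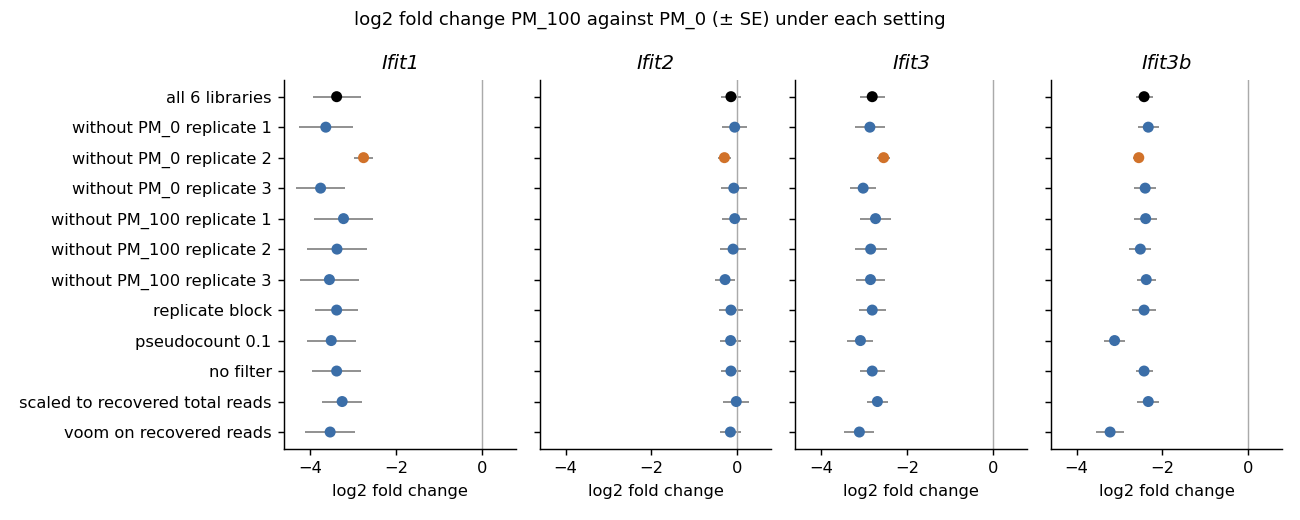
log2 fold change of PM_100 against PM_0 (horizontal axis, bars for the SE) of each IFIT gene with all 6 libraries (black), without PM_0_2 (orange) and under the other settings (blue). The values of Ifit1, Ifit3 and Ifit3b lay between -3.75 and -2.33 throughout, and those of Ifit2 between -0.30 and -0.02.

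The order of the 4 genes differed between the groups. FPKM is a level per length, so levels of different genes can be compared, within limits. The values of Ifit3 and Ifit3b depend on how their shared reads were counted, which is not known. PM_0_2 also departed from the other controls in a way that moved with gene length, as described below. In each control library the order was Ifit1, Ifit3, Ifit2 and Ifit3b, and in each exposed library it was Ifit2, Ifit1, Ifit3 and Ifit3b. Within each group the ranges of genes adjacent in this order did not overlap. Ifit2 made up 14.2%, 4.18% and 16.1% of the summed FPKM of the 4 genes in PM_0, and 53.9%, 49.4% and 52.5% in PM_100. The sum itself was 130, 311 and 112 FPKM in PM_0 and 23.9, 27.6 and 34.2 FPKM in PM_100. The ratio of Ifit1 to Ifit3 was 2.48, 5.38 and 2.63 in PM_0 and 2.21, 2.29 and 2.98 in PM_100, so that the ranges overlapped.

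**Figure D3:**
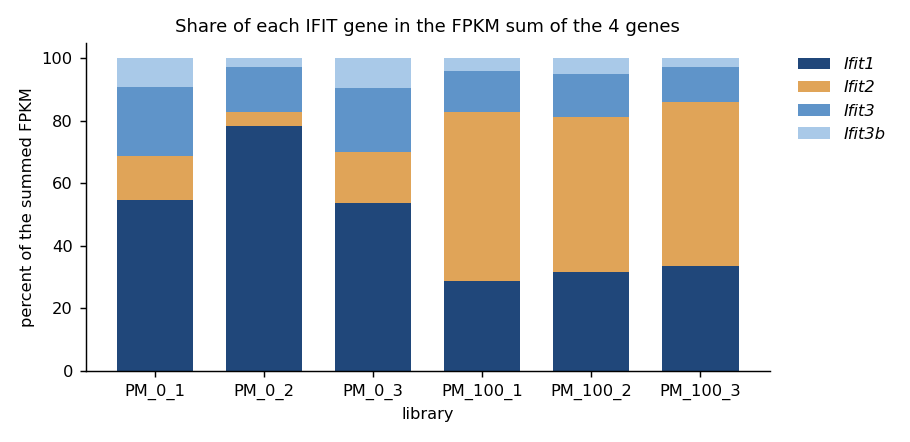
Share of each IFIT gene (stacked bars, percent) in the summed FPKM of the 4 genes in each library. Ifit2 held 4.18% to 16.1% of the sum in the controls and 49.4% to 53.9% in the exposed libraries, while Ifit1 held the most in each control.

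PM_0_2 departed from the other controls in opposite directions within the family. On the log2(FPKM + 1) scale it was 1.88 above their mean for Ifit1 and 0.80 above it for Ifit3, but 0.46 below it for Ifit2 and 0.37 below it for Ifit3b. Over all genes tested, the middle of these departures (25th to 75th percentile) lay between -0.85 and 0.78, with Ifit2 and Ifit3b inside this range, Ifit3 at percentile 75.5 and Ifit1 at percentile 92.1. The departure moved with gene length, with a median of 0.52 for genes under 1 kb, 0.59 for genes of 1 to 2 kb, 0.19 for genes of 2 to 4 kb and -0.35 for longer genes. The exon lengths were 2656 bp for Ifit1, 3927 bp for Ifit2, 1745 bp for Ifit3 and 2000 bp for Ifit3b. The part of these differences in the values of PM_0_2 was not tested.

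Sequence shared between the genes bears on how far each can be told from its copies. The coding sequences of Ifit3 and Ifit3b are both 1209 bases long and 99.1% identical, with 11 mismatches and no gap. Of the 31-base stretches of Ifit3 transcripts, 61.8% also occur in Ifit3b, and 54.1% of those of Ifit3b occur in Ifit3. The longest identical stretch was 329 bases, which is longer than a single read of 150 bases, and 18.5% of all 150-base stretches of Ifit3 were shared within the family. The sources used here do not say how reads that match both genes were counted, so the split between Ifit3 and Ifit3b is uncertain. Their sum does not depend on that split if each shared read was counted once. It would differ if such reads were dropped or counted on both genes. The sum was 1374, 1247 and 1108 reads in PM_0 and 133, 167 and 156 reads in PM_100. Scaled as in the deposited values, the sum was 9.09 times higher in PM_0, or 7.97 times without PM_0_2. Ifit3 took 67.6%, 82.2% and 65.0% of these reads in PM_0 and 72.9%, 70.7% and 77.6% in PM_100.

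Ifit1 shared 9.16% of its 31-base stretches with Ifit1bl2 and 5.23% with Ifit1bl1, and none with Ifit2, Ifit3 or Ifit3b. The coding sequence of Ifit1 was 73.8% identical to that of Ifit1bl2 and 74.0% to that of Ifit1bl1. Ifit2 shared no 31-base stretch with any other annotated gene, and its coding sequence was between 54.8% and 56.5% identical to those of the other IFIT genes. Outside the family, stretches of Ifit1 occurred in 75 annotated genes and stretches of Ifit3b in 2786. Counted over all genes, 10.8% of the 31-base stretches of Ifit1 and 55.3% of those of Ifit3b were shared. Both Ifit1 paralogs were too low for the fit. Ifit1bl2 had 0.352, 0.229 and 0.329 FPKM in PM_0 and 0.150, 0.0837 and 0.0657 FPKM in PM_100, from 22, 10 and 20 against 9, 5 and 4 reads. Ifit1bl1 had 0.426, 0.0678 and 0.463 FPKM in PM_0 and 0.246, 0.273 and 0.146 FPKM in PM_100. The groups of Ifit1bl2 did not overlap, whereas those of Ifit1bl1 did. All exposed libraries lay below all controls for 6.85% of the genes tested, which did not include these paralogs. The longest stretch identical between Ifit1 and Ifit1bl2 was 180 bases, longer than a single read of 150 bases. Whether the few reads of Ifit1bl2 include reads from Ifit1 was not tested.

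No protein-coding gene beside the cluster passed the test. Within 250 kb of its ends lie Fas, which encodes a death receptor, Ch25h, which encodes cholesterol 25-hydroxylase, Lipa, which encodes lysosomal acid lipase, the transporter gene Slc16a12 and Pank1, which encodes a pantothenate kinase. The log2 fold changes with 6 libraries were 0.10 ± 0.18 for Fas, 0.05 ± 0.19 for Ch25h, 0.27 ± 0.61 for Lipa and 0.36 ± 0.35 for Pank1 (SE). Without PM_0_2 they were 0.16 ± 0.12, 0.06 ± 0.15, -0.41 ± 0.22 and -0.03 ± 0.10 (SE), so that the direction turned for Lipa and Pank1. Limma called 0 of these 4 in either fit, with 0 at an unadjusted p under 0.05. Slc16a12 was at or near 0 FPKM in all libraries. Ch25h is itself known as an interferon-stimulated gene, and it ranged from 1.44 to 1.64 FPKM in PM_0 and from 1.33 to 2.05 FPKM in PM_100. Ifit2 lies at the end of the cluster that faces Lipa.

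**Figure D4:**
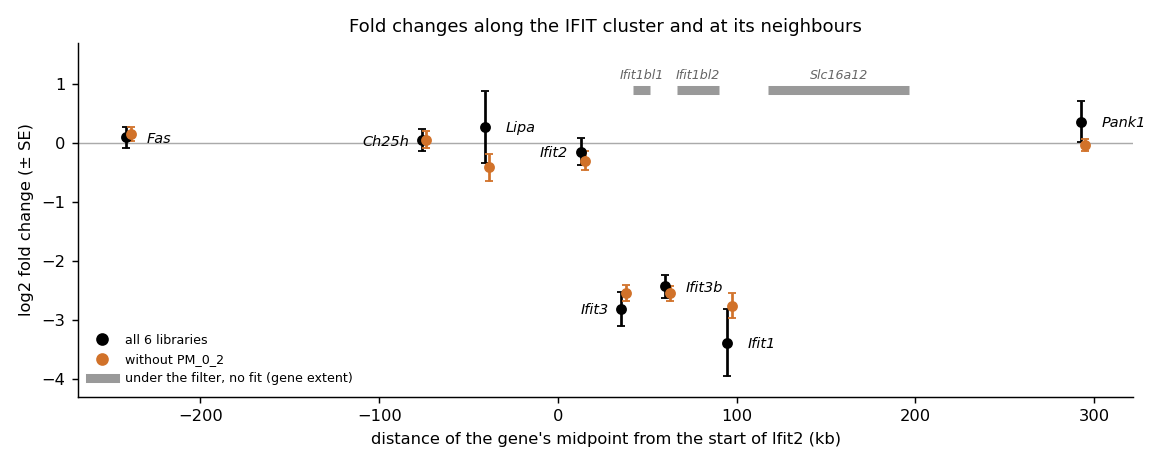
log2 fold change of PM_100 against PM_0 (vertical axis, ± SE) at each gene's midpoint in kb from the start of Ifit2 (horizontal axis), with all 6 libraries (black) and without PM_0_2 (orange). Ifit3, Ifit3b and Ifit1 lay between -3.38 and -2.43, while Ifit2 and the neighbours lay between -0.14 and 0.36 with all libraries, and grey bars show genes too low for the fit.

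The genes of the interferon pathway were then set beside the IFIT genes. Of 21 interferon ligand genes, 18 were at 0 in all libraries and none was high enough for the fit. Ifnb1, which encodes interferon β, had 0, 8 and 2 reads in PM_0 and 2, 0 and 0 reads in PM_100. Of the receptor and kinase genes, 0 of 8 tested were called in either fit, with 0 and 2 at an unadjusted p under 0.05, and the median log2 fold change was 0.03 with 6 libraries and 0.01 without PM_0_2. The medians of all genes tested were 0.02 and -0.01. Jak1, which encodes a receptor-bound kinase, had 53.1, 9.96 and 51.0 FPKM in PM_0 and 39.3, 41.8 and 46.5 FPKM in PM_100 (limma adjusted p = 0.875 and 0.298 without PM_0_2).

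For the transcription factors of the pathway, the median log2 fold change was -0.89 with 6 libraries and -0.74 without PM_0_2. None of 8 was called by limma with 6 libraries (5 at an unadjusted p under 0.05). Without PM_0_2, where 0.552% of all genes tested were called lower, 4 of 8 were called lower. All 8 had negative log2 fold changes in both fits. In 7 of 8 all exposed libraries lay below all controls, which was the case for 6.85% of all genes tested. Among the 4 called were Irf9 and Stat2, whose products act together at the ISRE, and Irf7, whose product amplifies the response. Irf9 changed by -1.09 ± 0.10 (SE, limma adjusted p = 0.0198) and Stat2 by -1.35 ± 0.15 (SE, limma adjusted p = 0.0329) without PM_0_2. With 6 libraries the values were -0.99 ± 0.19 and -2.30 ± 0.79 (SE, limma adjusted p = 0.372 and 0.875). Stat2 stood at 141 FPKM in PM_0_2, compared with 21.5 and 16.3 FPKM in the other controls. Irf3, the factor that can act on IFIT genes without interferon, had a log2 fold change of -0.30 ± 0.12 (SE, limma adjusted p = 0.324) without PM_0_2 and -0.79 ± 0.43 (SE, limma adjusted p = 0.875) with 6 libraries, and was called in neither fit.

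Among the nucleic acid sensors and adaptors, 0 of 10 were called by limma with 6 libraries (5 at an unadjusted p under 0.05). Without PM_0_2, where 0.552% of all genes tested were called lower, 4 of 9 were called lower. The log2 fold change was negative in 8 of 9 in that fit and in 6 of 10 with 6 libraries. Those called lower were the RNA sensors Ddx58, Ifih1 and Dhx58 and the RNA-activated kinase Eif2ak2. Their log2 fold changes lay between -2.06 (Dhx58) and -1.18 (Eif2ak2) without PM_0_2 and between -2.41 (Dhx58) and -0.89 (Eif2ak2) with 6 libraries. The adaptors and kinase downstream of the sensors did not pass in either fit. Without PM_0_2 the values were -0.01 ± 0.10 for Tmem173, -0.04 ± 0.11 for Tbk1 and 0.16 ± 0.11 for Mavs (SE, limma adjusted p = 0.962, 0.869 and 0.541). With 6 libraries they were 0.07 ± 0.19, 0.04 ± 0.19 and 0.81 ± 0.56 (SE, limma adjusted p = 0.917, 0.952 and 0.875), and Mavs was at 2.14 FPKM in PM_0_2 against 11.0 and 11.3 FPKM in the other controls. In both fits 1 of 5 signalling inhibitors was called lower, as were 0.0589% and 0.552% of all genes tested. This was Usp18, which encodes a protease that removes ISG15 and restrains the receptor, with 36.2, 29.0 and 34.4 FPKM in PM_0 and 7.72, 8.28 and 7.93 FPKM in PM_100 (limma adjusted p = 0.0426 and 0.00661). The call was lost, with 0 of the list called, when any other single library was left out, with the replicate block, without the filter, with the other scaling and with voom.

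For the other interferon-stimulated genes, the median log2 fold change was -1.40 with 6 libraries and -1.39 without PM_0_2. Limma called 5 of 52 lower with 6 libraries (Usp18, Rtp4, Ifi44, Oasl2 and Iigp1) and 30 of 51 without PM_0_2, and 0 higher in either fit. Of all genes tested, 0.0589% and 0.552% were called lower in these fits. In 44 of 52 all exposed libraries lay below all controls, which was the case for 6.85% of all genes tested. Usp18 and Ifih1 were also counted in the lists above. The lists were chosen with earlier results of these data known, so nothing is read from these counts. Isg15, which encodes a ubiquitin-like modifier, had 361, 1944 and 302 FPKM in PM_0 and 59.3, 59.3 and 64.3 FPKM in PM_100. Its log2 fold change was -3.27 ± 0.72 (SE, limma adjusted p = 0.538) with 6 libraries and -2.42 ± 0.12 (SE, limma adjusted p = 0.00661) without PM_0_2. Ifi44 had 9.96, 8.80 and 7.16 FPKM in PM_0 and 0.648, 0.625 and 0.650 FPKM in PM_100 (limma adjusted p = 0.0347 and 0.00838). B2m, which encodes the light chain of MHC class I, was not called, with -0.44 ± 0.17 (SE, limma adjusted p = 0.306) without PM_0_2 and -0.48 ± 0.30 (SE, limma adjusted p = 0.875) with 6 libraries.

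**Figure D5:**
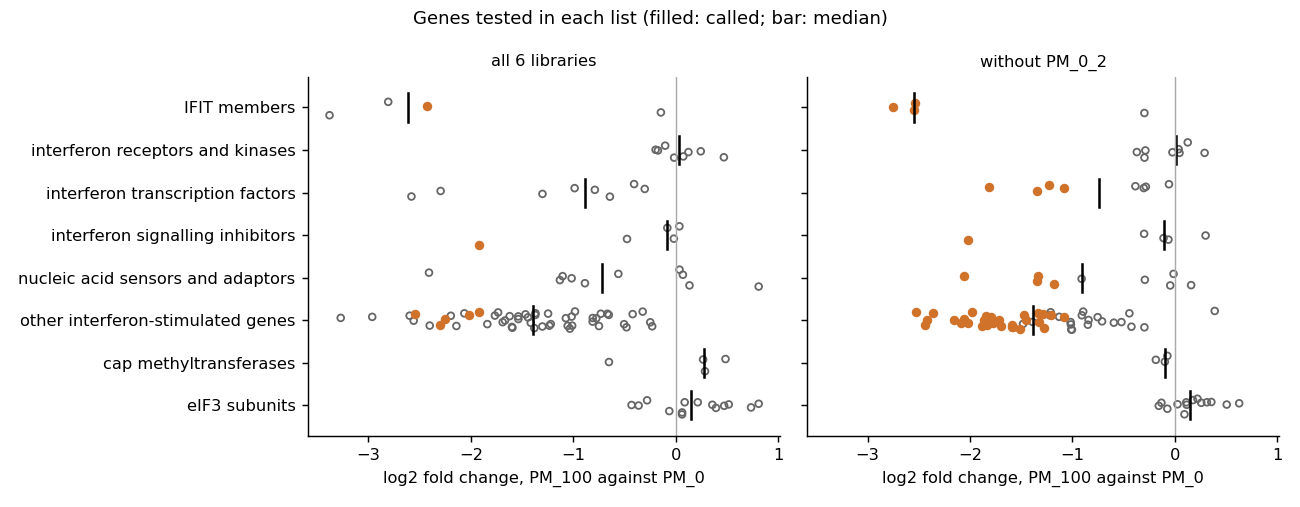
log2 fold change of PM_100 against PM_0 (horizontal axes) of each gene tested in the IFIT family and in 7 lists (rows), with all 6 libraries (left) and without PM_0_2 (right). Filled points are called genes and bars are medians, and 30 of 51 other interferon-stimulated genes were called without PM_0_2 compared with 5 of 52 with all libraries. Of all genes tested, 0.552% and 0.0589% were called lower in these fits.

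No gene in the lists of eIF3 subunits and of RNA capping enzymes passed the test. The eIF3 subunit genes, whose products meet IFIT proteins at the ribosome, gave a median of 0.15 on the log2 scale in both fits, and limma called 0 of 14, with 1 at an unadjusted p under 0.05 with 6 libraries and 5 without PM_0_2. In 5 of the 14 (Eif3a, Eif3b, Eif3d, Eif3f and Eif3l) all exposed libraries lay above all controls, which held for 8.35% of the genes tested. Eif3b had 110.3, 58.2 and 110.3 FPKM in PM_0 and 167, 162 and 143 FPKM in PM_100, with log2 fold changes of 0.81 ± 0.32 and, without PM_0_2, 0.51 ± 0.11 (SE, limma adjusted p = 0.875 and 0.127). The Eif3c groups overlapped, with 131, 116 and 133 FPKM in PM_0 and 126, 135 and 143 FPKM in PM_100. Limma called 0 of 4 genes for RNA capping and cap methylation with 6 libraries and 0 of 3 without PM_0_2, with 0 at an unadjusted p under 0.05 in both. The ISRE core was found in the promoters of 26 of the 47 genes called lower without PM_0_2 that had a RefSeq promoter (55.3%), Ifit1, Ifit3 and Ifit3b among them, and of 308 of 8358 genes tested (3.69%). The 47 genes come from the same contrast from which the IFIT genes were chosen. These shares are therefore a description, and the difference between them was not tested.

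The genes most like each IFIT gene over the 6 libraries were found from the root mean square difference of their mean-centred log2(FPKM + 1) values. For Ifit1 they were Isg15 (0.279), Oas2 (0.386), Gbp3 (0.418), Irf7 (0.530) and Oas1b (0.558), and all of these were also highest in PM_0_2. Those nearest to Ifit3 were Dhx58 (0.222), Ifi44 (0.294), Rtp4 (0.300), Oas2 (0.325) and Mx2 (0.342). The profile of Ifit3b was closest to Iigp1 (0.191), Ifi44 (0.197), Oasl2 (0.225), Usp18 (0.263) and Rtp4 (0.281). In the case of Ifit2 they were Acap2 (0.023), Pkn2 (0.031), Wdr47 (0.032), Mcm9 (0.032) and Scyl2 (0.033), none of which was in the interferon lists. Within the family Ifit3 and Ifit3b differed by 0.446 and Ifit1 and Ifit3 by 0.480, whereas Ifit2 was between 1.16 and 1.80 away from the other 3.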

How the data were processed

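RNA from 6 libraries of GC-2spd cells was analysed, 3 untreated and 3 exposed to PM2.5, grouped by their labels. The authors sequenced 150 bp paired-end reads and counted them on genes, and they deposited FPKM. The submitters' processing notes name HISAT2 2.0.5, featureCounts 1.5.0-p3 and the build mm9. The handling of reads that match several genes is not given in the sources used here. The gene IDs matched GENCODE M21 on GRCm38 for 54495 of 54886 genes, and its exon lengths turned 98.1% to 98.4% of values under 50 reads into whole reads (within 0.05), so positions refer to GRCm38. These reads gave the depth, and the deposited values were already scaled between libraries. Positions, names and exon lengths came from that annotation.

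With R 4.3.3, limma 3.58.1 (trend and robust) was fitted to log2(FPKM + 1) over genes with a mean of at least 1 FPKM across the libraries in the fit, with the group as the only term. As the deposited FPKM are not counts, limma on the log scale was the main test, and voom on the recovered reads was an alternative. The fit was tested on simulated data in which no library stood apart. That check does not cover a library such as PM_0_2. Members and gene lists were chosen with earlier results of these data known. Named with values are the 4 IFIT genes, their paralogs, protein-coding neighbours, of each list up to 6 called genes by the smallest p and up to 3 others with the highest mean, and the 5 genes most like each member. Other genes (Iigp1, the cell type markers and further eIF3 subunits) were named after their values were seen. Some genes of the lists are not reported here by name. Alternatives were leaving out each library, a replicate block, a pseudocount of 0.1, no filter, another scaling, voom on the recovered reads and no fold threshold. Shared sequence was counted on GENCODE M21 transcripts on both strands, and alignments were made with Biopython 1.88.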

Additional observations from a re-analysis of the deposited data

How the results depend on the processing

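The log2 fold changes of the 4 IFIT genes were negative in all 11 alternatives, between -3.75 and -2.75 for Ifit1, -0.30 and -0.02 for Ifit2, -3.11 and -2.54 for Ifit3, and -3.22 and -2.33 for Ifit3b. The value of Ifit3b moved by more than the replicate SD with a pseudocount of 0.1 (-3.11) and with voom on the recovered reads (-3.22). The number of calls depended on the setting. Limma called 11 genes with 6 libraries (451 at an unadjusted p under 0.05), 1 of them an IFIT gene. Leaving out 1 library gave 0 to 84 genes and 0 to 3 IFIT genes, with 84 and 3 reached only without PM_0_2 and 0 genes without any other library (194 to 625 at an unadjusted p under 0.05). Without a filter, 0 genes and 0 IFIT genes were called (875 unadjusted), and voom called 0 and 0 (423 unadjusted). Scaling to the recovered total reads shifted the median of all genes to 0.13 and left 6 calls, 3 higher and 3 lower, against 4 and 7, and Ifit2 then stood at -0.02. The IFIT gene called under this scaling was Ifit3 (limma adjusted p = 0.0415), and the call of Ifit3b was lost (limma adjusted p = 0.0926). Leaving out 1 library called 0 to 4 transcription factors, 0 to 4 sensors and adaptors, 0 to 1 inhibitor and 0 to 30 other interferon-stimulated genes. The calls in the last 2 lists were 0 and 0 without a filter and with voom, and 0 and 2 with the other scaling. The cause was not tested.

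With the replicate block, 0 genes were called (335 at an unadjusted p under 0.05), among them 0 IFIT genes, 0 inhibitors and 0 other interferon-stimulated genes. Between the control and the exposed library of equal number, departures from the group means correlated at -0.28 (number 1), 0.18 (number 2) and 0.25 (number 3). PM_0_2 stood apart and so pulled the control mean, which shaped the departures of PM_0_1 and PM_0_3. These correlations therefore cannot decide whether the numbers mark pairs. The main fit had the group as its only term and did not pair them.

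With 3 libraries in each group, 1 of which stands apart, the fit with 6 libraries has wide standard errors. The fit without PM_0_2 rests on 2 controls, and that library was left out with its values known. The split of reads between Ifit3 and Ifit3b is uncertain, and the exposed values of Ifit3b rest on 35 to 49 reads.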
